A study of Homo sapiens with 21 samples.

Results

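Fetal globin regulators are the proteins that decide whether a red cell precursor makes fetal haemoglobin, from the gamma globin genes HBG1 and HBG2, or adult haemoglobin, from HBB. The 10 genes described here, BCL11A, ZBTB7A, HIC2, LIN28B, IGF2BP1, NR2C1, NR2C2, CHD4, MBD2 and NFIX, were taken as a list of names, with no threshold on their values, and were found by Ensembl identifier among the 61541 genes of the gene count table and the 57300 gene names of the exon bin files. Of the 10 genes, 9 had a name of their own in the bin files, and CHD4 was counted there in a name joined with NOP2 and ENSG00000285238. All libraries came from K562, an established human erythroleukaemia line, and the 21 libraries fell into 7 groups of 3. In the first experiment K562 cells overexpressing the enhancer RNA (eRNA) labelled 34kn were compared with 34kn controls, and in the next cells overexpressing the eRNA labelled 34kp were compared with 34kp controls, the pair of eRNAs being transcribed from an enhancer upstream of MYB. In the remaining experiment, cells with an empty vector were compared with cells labelled MYB overexpression and cells labelled NMYB overexpression, where the study's design speaks of an N-terminally truncated MYB. The sources used here give neither the vectors nor the time after their delivery. They also do not say that replicates came from separate cultures, and the p-values then reflect a spread between samples that could be only technical. Because whole cultures were sequenced, fewer cells of a kind and less RNA per cell cannot be told apart.

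BCL11A and ZBTB7A (also called LRF) bind the gamma globin promoters and silence them in adult cells, partly through the NuRD complex, of which CHD4 is the remodelling ATPase and MBD2 a methyl-CpG binding subunit. HIC2 represses BCL11A in fetal erythroid cells, and the RNA-binding protein LIN28B blocks maturation of let-7 microRNAs and lowers BCL11A translation, while IGF2BP1, itself a let-7 target, also lowers BCL11A. NR2C1 (TR2) and NR2C2 (TR4) are orphan nuclear receptors of the DRED complex that bind embryonic and fetal globin promoters, and NFIX is a nuclear factor I protein whose loss raises fetal globin in adult erythroid cells.

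The let-7 family links several of these genes by sequence. All 9 let-7 and miR-98 mature sequences in the RefSeq table (GRCh38.p14) share the seed GAGGUAG, shown in capitals in let-7a and miR-98, which are given because they show how the sequences differ outside the seed:

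hsa-let-7a-5p: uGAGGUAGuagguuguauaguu

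hsa-miR-98-5p: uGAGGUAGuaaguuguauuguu

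The reverse complement of that seed, CTACCTC, was searched on the transcript strand of the longest 3′ untranslated region (3′ UTR) of each gene in GENCODE 29 (GRCh38), with no other motif searched. It was present in 6 of the 10 genes and in 9.7% of the 3′ UTRs of 19145 genes. HIC2, LIN28B and IGF2BP1 held 4 matches each, MBD2 held 3, BCL11A and CHD4 held 1 each, and ZBTB7A, NR2C1, NR2C2 and NFIX held none. Long 3′ UTRs hold more matches: among 3′ UTRs within 10% of the length of each gene's own, 24.7% had a match for HIC2, 24.1% for LIN28B, 30.8% for IGF2BP1 and 19.8% for MBD2. The match nearest the stop codon in each of the 4 genes with several matches is shown in 30 bases, with the match in capitals:

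HIC2 (chr22:21446954-21446960, plus strand): ggggtcccagcccgtCTACCTCcccatccc

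LIN28B (chr6:105078827-105078833, plus strand): acccggttgcaaagtCTACCTCatgcaagt

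IGF2BP1 (chr17:49051076-49051082, plus strand): tgtgtgcgaagtaaaCTACCTCaaggtatg

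MBD2 (chr18:54153988-54153994, minus strand): tacattttattaccaCTACCTCcagtttcc

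A match is a description of the sequence and not a site of binding. Levels of mature let-7 were not analysed here. The bins that hold these matches carried reads in all 12 eRNA libraries: HIC2 bin 5 had 2849 to 4373 counts, LIN28B bin 9 had 598 to 862, IGF2BP1 bin 25 had 3588 to 4855 and MBD2 bin 1 had 109 to 220. Per base the medians were 0.775, 0.393, 0.633 and 0.047 counts. MBD2 bin 1, which is 3653 bases long, was thus sparsely read beside bin 6 of the same gene, at 1.031 counts per base over 178 bases.

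LIN28B (ENSG00000187772, chromosome 6, 104936616 to 105083332, plus strand) has annotated starts far apart, and the bins differ in whether they were read. Bins 1 to 4, which hold the exons of the upstream starts, had 0 counts in all 12 eRNA libraries. Bin 5 (104957048 to 104957260), the exon of the downstream start, had between 23 and 72 counts, and the next bins 6 to 8 had between 66 and 189. The bases ahead of both exons are shown from RefSeq (GRCh38.p14, plus strand), with CG dinucleotides in capitals, since the starts differ in base composition:

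LIN28B upstream start, no reads in its exon (chr6:104940715-104940865): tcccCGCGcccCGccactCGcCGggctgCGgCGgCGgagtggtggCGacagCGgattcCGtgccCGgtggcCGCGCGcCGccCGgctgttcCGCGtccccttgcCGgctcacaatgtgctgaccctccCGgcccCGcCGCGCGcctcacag

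LIN28B downstream start, exon read in every library (chr6:104956857-104957047): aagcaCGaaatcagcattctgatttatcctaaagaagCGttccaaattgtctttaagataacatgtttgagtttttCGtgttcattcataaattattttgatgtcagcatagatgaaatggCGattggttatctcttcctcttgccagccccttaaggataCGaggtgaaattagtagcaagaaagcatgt

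The whole 300-base RefSeq windows around these starts had a GC content of 73.0% and 39.0%, and 37 and 8 CG dinucleotides (the motif reads the same on both strands), against a median of 14 over 35116 RefSeq windows of that length. A CG was present in 96% of all windows. At least as many CGs as in the upstream window were present in 11.3%, and at least as many as in the downstream window in 60.7%. These positions rest on the bins having the same number in the deposited files and in GENCODE 29, which was true of LIN28B, HIC2, IGF2BP1, ZBTB7A, NR2C1 and MBD2.

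**Figure D1:**
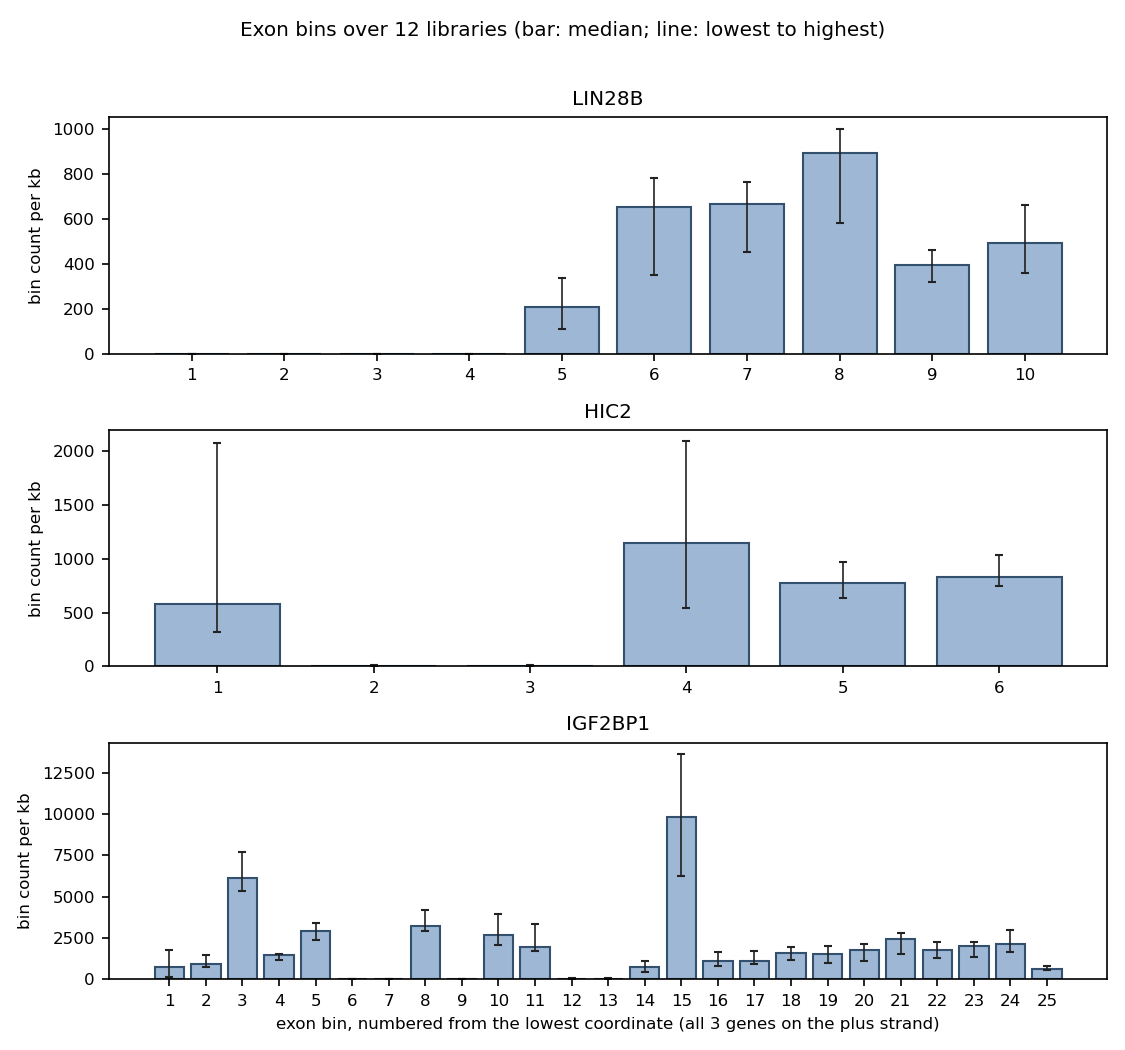
Bin count per kilobase of bin (y axis) for each exon bin (x axis, numbered from the lowest coordinate) of LIN28B, HIC2 and IGF2BP1, as the median (bar) and the lowest to highest value (line) over 12 eRNA libraries. LIN28B bins 1 to 4 are at 0 while bin 5 has 23 to 72 counts, and HIC2 bins 2 and 3 reach at most 3 counts. Very short bins stand high because a read longer than a bin is counted in it.

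Annotated exon bins of HIC2 and IGF2BP1 were also unequally read. HIC2 (ENSG00000169635, chromosome 22, 21417404 to 21451463, plus strand) had 50 to 326 counts in bin 1, its most upstream exon, at most 2 counts in bin 2 and at most 3 in bin 3. IGF2BP1 (ENSG00000159217, chromosome 17, 48997412 to 49055650, plus strand) had 10 to 129 counts in bin 1, which runs without a gap into bin 2, at 187 to 378 counts. Its internal bins 6, 7 and 9 had at most 8, 2 and 0 counts, while the neighbouring bins 5, 8 and 10 had 109 or more in each library.

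Total counts ranged from 16552237 to 24462819 per library in the gene table and from 36563252 to 41243796 in the bin files, where 1 read can add to more than 1 bin. Levels are CPM, the counts of a gene per 1e6 counts of its library, scaled by TMM factors. Bin and gene CPM were made by different aligners and counting, so they are not compared. Of 10 K562 identity markers, all had reads in the gene table, and their summed level was 2234 to 2267 CPM with empty vector, 1914 to 1961 with the MYB label and 1957 to 1973 with the NMYB label. TFRC held the largest part of that sum, with means of 1202, 968 and 921 CPM, and the markers did not all move together. By the edgeR test 4 of 10 fell and 0 rose with the MYB label, and 2 fell and 1 rose with the NMYB label, beside 22.3% and 24.9% of all genes called. Among 6 markers each of other cells, 1 lymphoid gene (MS4A1), 2 epithelial and kidney genes (PAX2 and CDH16), 1 fibroblast gene (LUM) and 1 granulocyte gene (ELANE) were at 0 in all 9 gene table libraries. Other genes of these lists were read. With empty vector the means were 31.3 CPM for CD3D among lymphoid genes and 25.3 CPM for LYZ among monocyte and granulocyte genes. Among epithelial genes KRT18, KRT19 and EPCAM stood at 317, 143 and 62.8 CPM, and among fibroblast genes COL1A2 and COL1A1 at 7.1 and 3.4. The lymphoid sum was 35.9 to 37.2 CPM with empty vector, 16.2 to 17.7 with the MYB label and 19.4 to 21.0 with the NMYB label, and the epithelial sum was 512 to 535, 384 to 413 and 432 to 484. The fibroblast sum was 11.5 to 11.9, 8.82 to 9.36 and 9.39 to 10.2 CPM, and the monocyte and granulocyte sum was 25.1 to 29.9, 33.8 to 38.7 and 38.3 to 40.9. These sums moved with the vector groups, and their part in the results was not tested. In the bin files the summed ranges of the 4 lists of other cells overlapped between eRNA libraries and their controls in both experiments. The sum of the 5 K562 markers with a name of their own was 1165 to 1229 CPM in 34kn controls and 1126 to 1160 with the 34kn eRNA, and it overlapped between 34kp groups. In the bin files, 34kn control 1 stood apart from the other 34kn controls for HIC2, LIN28B and MYB.

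MYB itself was checked first. Its level was 216, 210.3 and 219 CPM in the empty-vector libraries, 231, 228 and 222 CPM in the libraries labelled MYB and 215, 202 and 217 CPM in those labelled NMYB. The MYB-labelled libraries lay just above the empty-vector ones, by 0.08 on the log2 scale (SE 0.0437), and did not pass the test (edgeR adjusted p = 0.230), and the NMYB label stood at −0.03 (adjusted p = 0.727). The transcript counts therefore do not show the overexpression that these labels name, and every direction given for them rests on the labels. In the eRNA experiments MYB stood at 0.17 (adjusted p = 0.205) for 34kn and 0.07 (adjusted p = 0.699) for 34kp.

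By level per kilobase of exon in the gene table, the members spanned a wide range. IGF2BP1 was at 43.1 ± 0.297 CPM per kb with empty vector (SD, n = 3), HIC2 at 40.9 ± 2.90, LIN28B at 27.7 ± 0.393 and NR2C2 at 11.2 ± 0.363. Below these lay ZBTB7A at 6.23 ± 0.109, MBD2 at 5.64 ± 0.353, NR2C1 at 4.81 ± 0.164, NFIX at 4.71 ± 0.412 and CHD4 at 2.77 ± 0.188. Ranked on the mean of the 3 groups, the order was IGF2BP1, HIC2, LIN28B, NR2C2, ZBTB7A, MBD2, NFIX, NR2C1, CHD4 and BCL11A. The ranges over 9 libraries overlapped between IGF2BP1 and HIC2, between MBD2 and NFIX and between NFIX and NR2C1, so these neighbours cannot be ordered, and all other neighbours were apart. The whole order held in 3 of 9 libraries, since HIC2 and IGF2BP1 kept their places in 5 and NFIX and NR2C1 in 7, while the other 6 genes kept theirs in all 9. The place of CHD4 is uncertain, because 46.9% of its exon bases are shared with other genes on the same strand. HIC2, LIN28B and IGF2BP1 held the first 3 ranks, and BCL11A the last. Whether the levels of these genes are linked was not tested. With the longest transcript in place of the exon union as length, NR2C1 moved above MBD2 and NFIX, at 7.01 CPM per kb against 6.16 and 5.70.

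**Figure D2:**
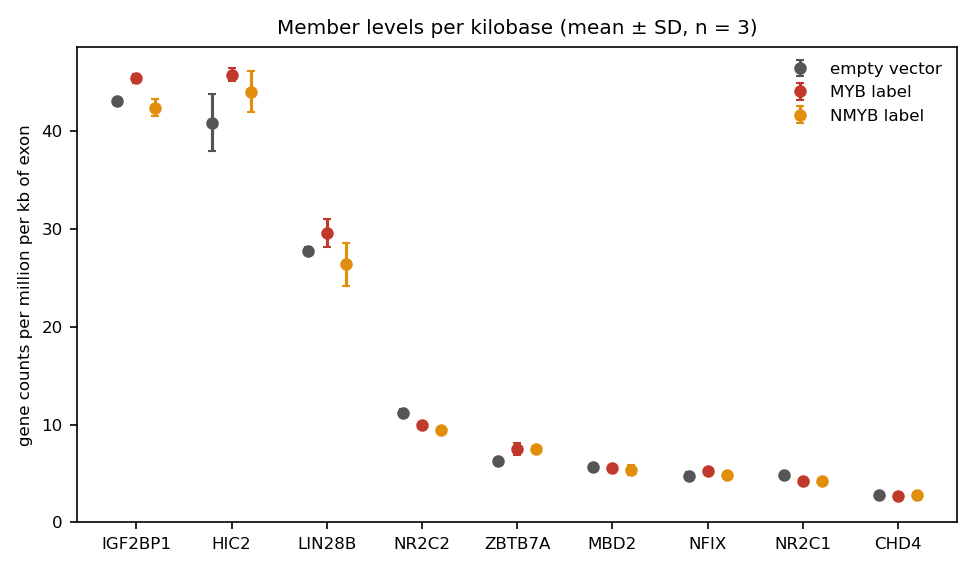
Level per kilobase of exon (y axis, gene CPM per kb) of 9 members (x axis) as mean and SD of 3 libraries in each group. IGF2BP1, HIC2 and LIN28B lie between 26.4 and 45.8 in all 3 groups, NR2C2 between 9.50 and 11.2, and the other 5 genes at 7.49 or less. BCL11A, at most 0.00397 in any library, is not drawn, and the CHD4 level is uncertain because its exons overlap other genes.

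The comparisons differed widely in how many genes passed an adjusted p of 0.05. With the MYB label 3529 of 15823 genes tested were called (22.3%), and of the 9 members tested ZBTB7A and HIC2 rose and NR2C2 fell. With the NMYB label 24.9% of genes were called, and ZBTB7A rose and NR2C2 fell. With 3 and 2 of 9 members called, the counts are near those backgrounds and are no result about the members. The MYB and NMYB comparisons share the 3 empty-vector libraries. Between the NMYB and MYB labels 1.14% of genes were called and no member was. At an unadjusted p under 0.05 there were 17.7% of genes and 2 members, and DESeq2 called 2.53% of genes and no member. Other settings called LIN28B (without the filter or with replicate number as a block) or HIC2, IGF2BP1 and NFIX (with the trend of each library over GC content removed, an alternative chosen after the data were seen), all lower with the NMYB label. For the 34kn eRNA no gene was called (0.0%), with 3759 genes (23.3%) and 4 of 9 members at an unadjusted p under 0.05, whereas DESeq2 called 1264 genes (7.84%), 2 of them members. For the 34kp eRNA 2.35% of genes and no member were called, with 17.9% of genes and 4 of 9 members at an unadjusted p under 0.05. DESeq2 called 5.86% of genes and 2 members. The difference between the eRNA effects was called for 6.36% of 17323 genes, and for ZBTB7A and IGF2BP1 among the members. The members' median log2 fold change was 0.08 with the MYB label, −0.02 with the NMYB label, −0.01 for 34kn and 0.10 for 34kp, beside 0.01, 0.01, 0.00 and −0.01 over all genes tested. Where groups of a member are said not to overlap, the share of all genes with groups apart was not counted. Such separation describes the values of a gene and is not read as particular to the members.

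**Figure D3:**
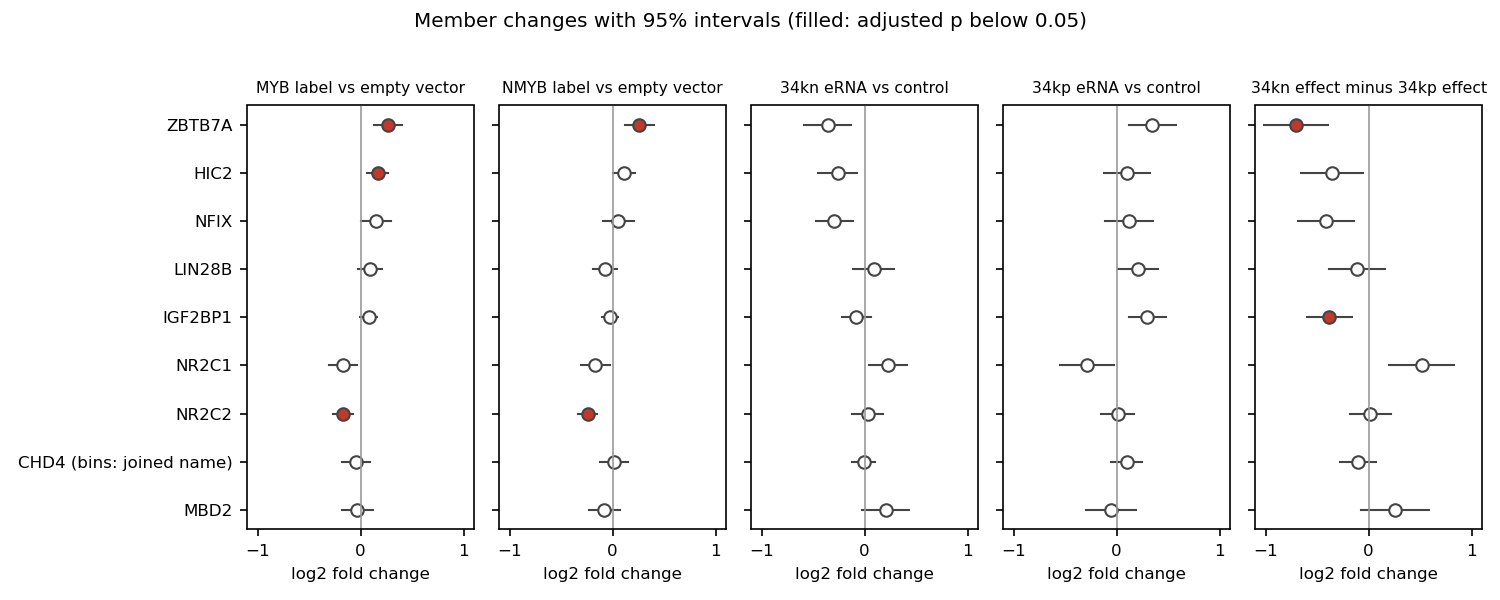
Log2 fold change (x axis) with its unadjusted 95% interval for 9 members (y axis) in 5 comparisons, with filled points where the edgeR adjusted p is below 0.05. ZBTB7A is filled in 3 panels, at 0.27, 0.26 and −0.70, and lies on opposite sides of 0 in the 34kn and 34kp panels.

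BCL11A (ENSG00000119866, chromosome 2, 60450520 to 60555154, minus strand), the main adult silencer of gamma globin, was at or next to 0 everywhere. It had 0, 0 and 1 counts with empty vector, 1, 1 and 0 with the MYB label and 2, 0 and 0 with the NMYB label. All of its 67 bins were at 0 in all 12 eRNA libraries. A count of 0 allows up to 3 counts, that is 0.123 to 0.181 CPM in the gene table and 0.0727 to 0.082 CPM in the bin files, counting error alone. No fold change is given, and BCL11A did not pass the filter on low counts in any comparison.

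ZBTB7A (ENSG00000178951, chromosome 19, 4044364 to 4066945, minus strand), the other promoter-bound gamma globin silencer, was called in 3 comparisons. Its level was 35.0, 35.9 and 36.2 CPM with empty vector, 40.7, 47.2 and 40.8 with the MYB label and 42.1, 44.9 and 41.2 with the NMYB label. Every labelled library lay above every empty-vector library. ZBTB7A rose by 0.27 on the log2 scale with the MYB label (SE 0.0664, adjusted p = 0.00719) and by 0.26 with the NMYB label (SE 0.0672, adjusted p = 0.00814), and these calls held in all 6 fits that left out a library for each label. In the eRNA experiments its values lay on opposite sides of 0. The bin level was 28.5, 24.8 and 23.2 CPM in 34kn controls against 18.9, 21.7 and 19.4 with the 34kn eRNA, and 24.1, 24.4 and 28.0 in 34kp controls against 34.7, 32.9 and 29.8 with the 34kp eRNA. The groups did not overlap in either experiment, all eRNA libraries being lower in 34kn and higher in 34kp. Neither change passed the edgeR test, at −0.36 (SE 0.104, adjusted p = 0.0877) and 0.34 (SE 0.104, adjusted p = 0.112). DESeq2 called both, and edgeR without the filter on low counts called the 34kn change (−0.35, adjusted p = 0.0261). The difference between the 34kn and 34kp changes did pass, at −0.70 (SE 0.146, 95% interval −1.01 to −0.39, adjusted p = 0.0128). It passed in all 12 fits that left out a library, with adjusted p from 0.00409 to 0.0452. Without 34kn control 1 the 34kn value was −0.27 (adjusted p = 0.135) and the difference −0.62 (adjusted p = 0.0260). With the GC trend removed, the difference was −0.44 (adjusted p = 0.0208), the 34kn value was −0.15 (adjusted p = 0.528), and the 34kp value was 0.31 and passed (adjusted p = 0.0201). ZBTB7A has the highest GC content of the 10 genes, with 60.2% in its longest transcript, and the part of GC content in the result was not tested further.

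HIC2, which represses BCL11A, was abundant in every group. Its level was 271, 306 and 309 CPM with empty vector, 335, 326 and 331 with the MYB label and 309, 335 and 309.8 with the NMYB label. All MYB-labelled libraries lay above the empty-vector libraries, of which the first was the lowest. HIC2 rose by 0.16 with the MYB label (SE 0.0502, adjusted p = 0.0244), but not without empty-vector library 1 (0.13 on the log2 scale, adjusted p = 0.0937), MYB library 1 (adjusted p = 0.0904) or MYB library 3 (adjusted p = 0.0640). With the NMYB label it stood at 0.11 (adjusted p = 0.130). The bin level was 182, 138 and 154 CPM in 34kn controls and 134, 132 and 132 with the 34kn eRNA, with control 1 well above the rest. The 34kn value was −0.26 (adjusted p = 0.117), −0.14 without control 1 (adjusted p = 0.185), −0.35 without control 2 (adjusted p = 0.00788) and −0.06 with the GC trend removed. Without the filter on low counts edgeR called the 34kn value (−0.25, adjusted p = 0.0201). For 34kp the groups overlapped, at 118.5, 130.4 and 135 CPM in controls against 154, 140.4 and 119 with the eRNA, and the value was 0.10 (adjusted p = 0.651). The difference between the eRNA effects on HIC2 was not called by edgeR. It passed without the filter (−0.37, adjusted p = 0.0357) and in 2 of 12 fits that left out a library, and was −0.11 with the GC trend removed (adjusted p = 0.382).

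NFIX (ENSG00000008441, chromosome 19, 12995608 to 13098796, plus strand) was 27.4, 32.5 and 29.1 CPM with empty vector, 31.5, 33.9 and 33.3 with the MYB label and 30.7, 31.7 and 29.9 with the NMYB label, with overlapping groups. It stood at 0.15 (adjusted p = 0.133) and 0.06 (adjusted p = 0.622), and passed for the MYB label only without empty-vector library 2 (adjusted p = 0.0385) or with the GC trend removed (adjusted p = 0.0118). In the 34kn experiment the groups did not overlap: the bin level was 32.6, 31.1 and 33.2 CPM in controls and 25.5, 27.0 and 27.0 with the eRNA, a change of −0.29 (SE 0.0820, adjusted p = 0.0851). DESeq2 called this difference (adjusted p = 0.0278), and so did edgeR without 34kn control 2 (adjusted p = 0.0238), but the value was −0.10 with the GC trend removed. For 34kp the NFIX groups overlapped, with 29.1, 33.1 and 28.5 CPM in controls and 36.2, 32.8 and 29.9 with the eRNA, at 0.12 (adjusted p = 0.607). The difference between the eRNA effects on NFIX was not called by edgeR. It passed in DESeq2 (−0.42, adjusted p = 0.021) and in 1 of 12 edgeR fits that left out a library, and was −0.17 with the GC trend removed (adjusted p = 0.351).

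**Figure D4:**
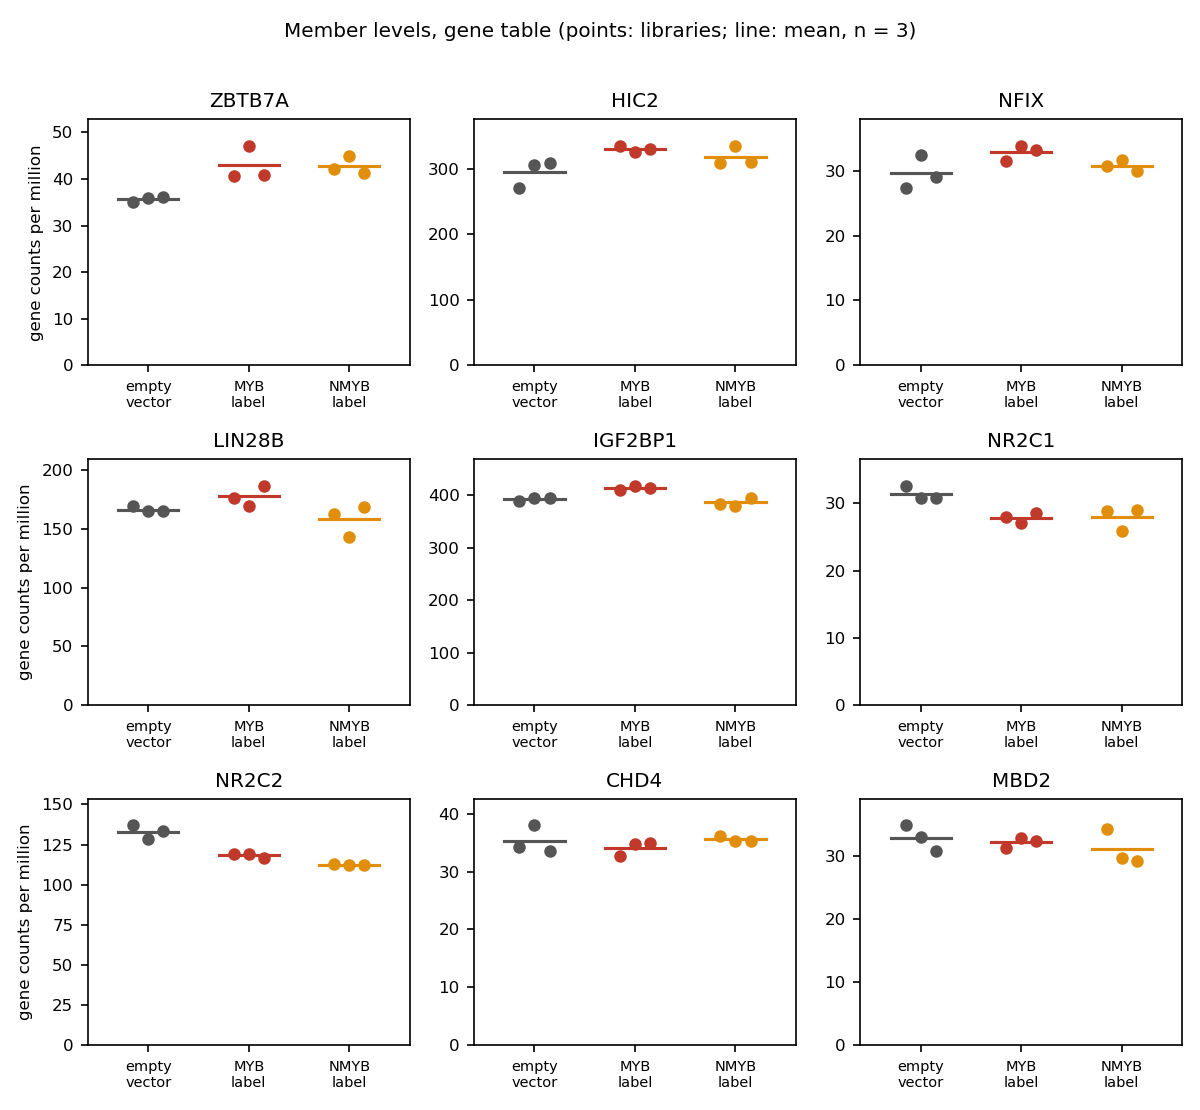
Gene CPM (y axis, from 0) of 9 members in the empty-vector, MYB-labelled and NMYB-labelled libraries (x axis), each point a library and each line the mean of 3. ZBTB7A points with either label lie at 40.7 CPM or more and the empty-vector points at 35.0 to 36.2 CPM, while NR2C2 points with either label lie below all 3 empty-vector points.

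The RNA-binding proteins of the let-7 axis were not called by edgeR in the vector experiment. LIN28B was 169, 165 and 165 CPM with empty vector, 176, 169.7 and 187 with the MYB label and 163, 144 and 168.5 with the NMYB label. The MYB-labelled libraries were the highest and NMYB library 2 was the lowest. LIN28B stood at 0.09 with the MYB label (adjusted p = 0.254), at −0.07 with the NMYB label (adjusted p = 0.391) and at −0.16 between the labels (95% interval −0.28 to −0.05, adjusted p = 0.138). The value between the labels passed with replicate number as a block (adjusted p = 0.0266) and without the filter on low counts (−0.19, adjusted p = 0.0286). IGF2BP1, at 389, 394 and 394 CPM with empty vector, 409.8, 418 and 413 with the MYB label and 383, 379.9 and 395 with the NMYB label, had values of 0.08 (95% interval −0.00 to 0.16, adjusted p = 0.157) and −0.02 (−0.10 to 0.06, adjusted p = 0.712). With the GC trend removed, the MYB value of IGF2BP1 passed at 0.09 (adjusted p = 0.0167).

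With the 34kp eRNA, LIN28B and IGF2BP1 were higher in every eRNA library than in any control, without passing the test. IGF2BP1 was 156, 153 and 172 bin CPM in 34kp controls and 208, 204 and 181 with the eRNA, a value of 0.30 (SE 0.0821, adjusted p = 0.0893). DESeq2 called it (adjusted p = 0.0220), as did edgeR without the filter on low counts (0.31, adjusted p = 0.034) or without 34kp eRNA library 3 (0.36, adjusted p = 0.0135). LIN28B was 61.0, 62.2 and 64.3 CPM in 34kp controls and 65.8, 74.1 and 77.2 with the eRNA, a value of 0.21 (SE 0.0883, adjusted p = 0.252). With the GC trend removed both passed, IGF2BP1 at 0.31 (adjusted p = 0.00562) and LIN28B at 0.23 (adjusted p = 0.0375). In the 34kn experiment the groups overlapped for both genes. IGF2BP1 was 206, 186 and 209 CPM in 34kn controls and 185, 188 and 197 with the eRNA (−0.08, adjusted p = 0.457), and LIN28B was 54.2, 67.8 and 65.5 in controls and 70.3, 62.7 and 67.2 with the eRNA (0.09, adjusted p = 0.587), the lowest control being library 1, without which the LIN28B value was −0.00.

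The difference between the 34kn and 34kp effects was called for IGF2BP1, at −0.38 (SE 0.103, adjusted p = 0.0397), and was −0.39 with the GC trend removed (adjusted p = 0.00692). The IGF2BP1 call was lost in 9 of the 12 fits that left out a library, namely without 34kn control 1 or 3, any 34kn eRNA library, 34kp control 1 or 2, or 34kp eRNA library 1 or 2, with adjusted p between 0.0612 and 0.110 and values between −0.34 and −0.41. It was also lost with replicate number as a block (adjusted p = 0.0682). For LIN28B the difference was −0.12 (adjusted p = 0.615), −0.21 without 34kn control 1 (adjusted p = 0.320) and −0.30 with the GC trend removed (adjusted p = 0.0546).

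Of 10 tested genes among 12 others of the LIN28B, let-7 and IGF2BP axis, 1 fell with the MYB label and 3 fell with the NMYB label, and none rose, beside 22.3% and 24.9% of all genes called. IGF2BP2, the adult-expressed relative of IGF2BP1, fell by 0.21 (adjusted p = 0.00267) and 0.22 (adjusted p = 0.00172). The terminal uridylyltransferases TUT4 and TUT7, which act on let-7 precursors, fell with the NMYB label by 0.15 (adjusted p = 0.0351) and 0.29 (adjusted p = 0.00203). The list's median was −0.10 with the MYB label and −0.15 with the NMYB label. None of the 10 was called in either eRNA experiment or between them.

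**Figure D5:**
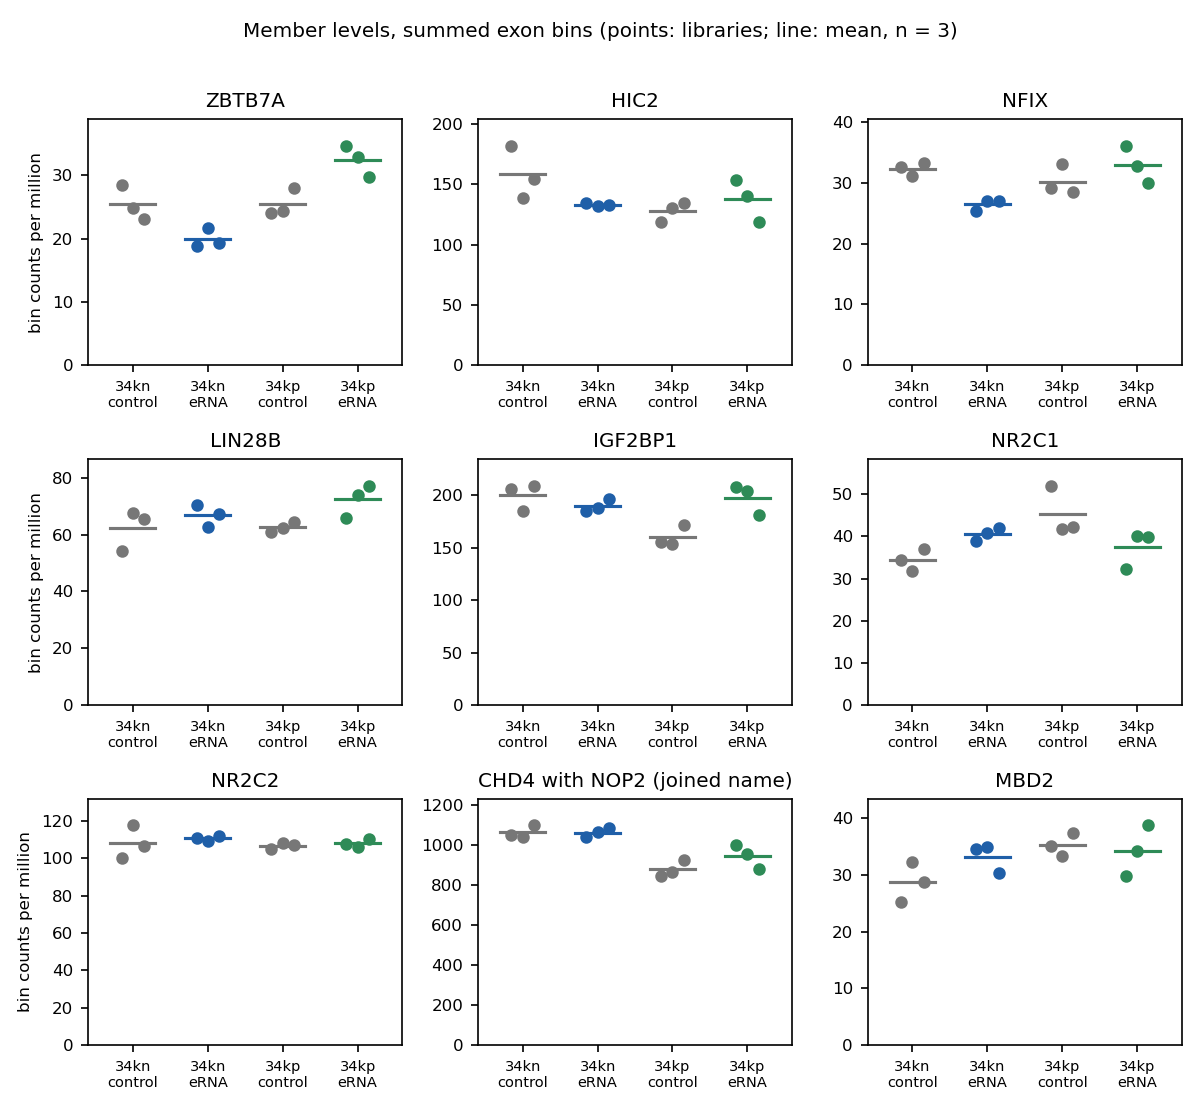
Summed bin CPM (y axis, from 0) of 9 members in the control and eRNA libraries of the 34kn and 34kp experiments (x axis), each point a library and each line the mean of 3. ZBTB7A lies below its controls with the 34kn eRNA and above them with the 34kp eRNA, and NR2C1 the other way round. The panel for CHD4 shows the joined name that also holds NOP2.

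The orphan receptors of the DRED complex were lower in every labelled library than in any empty-vector library. NR2C2 (ENSG00000177463, chromosome 3, 14947584 to 15053600, plus strand) was 137, 128 and 133 CPM with empty vector, 119, 119 and 117 with the MYB label and 113, 112 and 112 with the NMYB label. The groups formed separate levels with no overlap. NR2C2 fell by 0.17 with the MYB label (SE 0.0454, adjusted p = 0.0115) and by 0.24 with the NMYB label (SE 0.0457, adjusted p = 0.000715). The NMYB call held in all 6 fits that left out a library. The MYB call was lost without empty-vector library 1 (−0.13, adjusted p = 0.111), empty-vector library 3 (adjusted p = 0.0663) or MYB library 2 (adjusted p = 0.0516). Between the labels NR2C2 stood at −0.07 (95% interval −0.17 to 0.02, adjusted p = 0.415). In the annotation, 11.4% of its exon bases overlap MRPS25 on the other strand, and the strand setting of the counting is not given in the sources used here.

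NR2C1 (ENSG00000120798, chromosome 12, 95020229 to 95073703, minus strand) was 32.6, 30.8 and 30.7 CPM with empty vector, 27.9, 27.1 and 28.6 with the MYB label and 28.8, 25.8 and 29.1 with the NMYB label. All 6 labelled libraries lay below the empty-vector libraries, at −0.17 with either label (adjusted p = 0.0670 and 0.0714), short of the threshold. With replicate number as a block both values passed (adjusted p = 0.0399 and 0.0437), and with the GC trend removed the MYB value passed (adjusted p = 0.00769). In the eRNA experiments NR2C1 bin CPM was 34.4, 31.8 and 37.1 in 34kn controls against 38.9, 40.8 and 41.9 with the eRNA, and 52.1, 41.8 and 42.2 in 34kp controls against 32.3, 40.2 and 39.8 with the eRNA. The groups did not overlap, the eRNA libraries being higher in 34kn (0.23, adjusted p = 0.142) and lower in 34kp (−0.28, adjusted p = 0.245). The difference of 0.52 narrowly missed the threshold (SE 0.150, adjusted p = 0.0513). It passed in DESeq2 (adjusted p = 0.0175), and in edgeR without the filter on low counts (adjusted p = 0.0118) or without 34kp eRNA library 3 (adjusted p = 0.0238). It was 0.32 with the GC trend removed (adjusted p = 0.126). With the GC trend removed the 34kn value was 0.07 (adjusted p = 0.809) and the 34kp value −0.25 (adjusted p = 0.0558). NR2C1 is AT-rich, with 38.7% GC in its longest transcript. NR2C2 bin CPM was 100.3, 118 and 107 in 34kn controls and 111, 109 and 112 with the eRNA, and 105, 108 and 107 in 34kp controls and 108, 106 and 111 with the eRNA. Its groups overlapped in both experiments, at 0.03 for 34kn and 0.01 for 34kp, with 95% intervals from −0.13 to 0.18 and from −0.15 to 0.17.

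The NuRD members CHD4 and MBD2 were called in no comparison. CHD4 (ENSG00000111642, chromosome 12, 6570082 to 6614524, minus strand) was 34.2, 38.0 and 33.6 CPM with empty vector, 32.7, 34.8 and 34.9 with the MYB label and 36.2, 35.3 and 35.4 with the NMYB label, at −0.05 (95% interval −0.18 to 0.09, adjusted p = 0.651) and 0.01 (−0.12 to 0.15, adjusted p = 0.890). The CHD4 level is uncertain, because 53.5% of its exon bases overlap other annotated genes and 46.9% do so on the same strand, mostly the read-through gene AC006064.6. The gene table holds 583 to 805 counts of CHD4 per library, 25 to 53 of NOP2 and 0 to 1 of AC006064.6, whereas the joined name in the bin files sums to between 33501 and 41914. That joined name stood at −0.01 for 34kn (adjusted p = 0.944) and 0.10 for 34kp (adjusted p = 0.487). MBD2 (ENSG00000134046, chromosome 18, 54151601 to 54224788, minus strand) was 34.8, 32.9 and 30.7 CPM with empty vector, 31.2, 32.9 and 32.3 with the MYB label and 34.3, 29.6 and 29.2 with the NMYB label. MBD2 stood at −0.03 (95% interval −0.18 to 0.12) and −0.08 (−0.23 to 0.07), with overlapping groups. Its bin CPM was 25.2, 32.3 and 28.8 in 34kn controls and 34.5, 34.9 and 30.3 with the eRNA, and 35.1, 33.4 and 37.5 in 34kp controls and 29.7, 34.3 and 38.7 with the eRNA. The groups overlapped in both, with values of 0.20 for 34kn (95% interval −0.02 to 0.43, adjusted p = 0.258; 0.12 without 34kn control 1, adjusted p = 0.521) and −0.05 for 34kp (−0.29 to 0.19, adjusted p = 0.852).

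Of the 12 other NuRD subunits tested, 1 rose and 2 fell with each label, a share near the 22.3% and 24.9% called over all genes. MTA2 rose by 0.13 (adjusted p = 0.0273) and 0.17 (adjusted p = 0.00413), its relative MTA3 fell by 0.20 (adjusted p = 0.0277) and 0.23 (adjusted p = 0.0151), and CHD3, the paralogue of CHD4, fell by 0.17 (adjusted p = 0.0389) and 0.19 (adjusted p = 0.0196). The list's median was −0.04 with the MYB label and −0.03 with the NMYB label. In the eRNA experiments no subunit was called, but 3 of 12 differed between them, beside 6.36% of all genes. They were GATAD2A at −0.58 (adjusted p = 0.0327), MBD3 in a name joined with UQCR11 at −0.51 (adjusted p = 0.0251) and MTA1 in a name joined with TEX22 at −0.46 (adjusted p = 0.0481). Of 13 tested paralogues of the members, NFIB rose with the MYB label by 0.43 (adjusted p = 0.0415) and IGF2BP2 and CHD3 fell with each label. These calls stand beside 22.3% and 24.9% of all genes called and are no result about the paralogues.

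Among 25 other regulators and cofactors of globin switching, 3 rose and 7 fell with the MYB label, and 4 rose and 7 fell with the NMYB label, beside 22.3% and 24.9% of all genes called in either direction. Erythroid factors went in different directions. LMO2, a bridging protein of the GATA1 complex, fell by 0.46 (adjusted p = 3.50e-06) and 0.26 (adjusted p = 0.00121), whereas KLF1, an activator of HBB and BCL11A, rose by 0.26 (adjusted p = 0.0454) and 0.52 (adjusted p = 0.000800). RUNX1 rose by 0.35 (adjusted p = 0.000213) and 0.31 (adjusted p = 0.000747), and the polycomb gene BMI1 rose by 0.34 (adjusted p = 0.00106) and 0.25 (adjusted p = 0.0115). GATA1 fell by 0.29 with the MYB label (adjusted p = 8.0e-05), stood at −0.10 with the NMYB label (adjusted p = 0.0904) and was 0.18 higher with the NMYB label than with the MYB label (adjusted p = 0.0474). RCOR1, a corepressor scaffold that partners KDM1A, fell by 0.25 (adjusted p = 0.000924) and 0.28 (adjusted p = 0.000328). No gene of this list was called in either eRNA experiment, and between them LMO2 differed by −0.57 (adjusted p = 0.0126). The list's median was 0.03 with the MYB label and −0.02 with the NMYB label.

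The globin genes that these regulators act on were read in the same libraries. HBG1 was 221, 211 and 215 CPM with empty vector, 219, 226 and 215 with the MYB label and 248, 247 and 231 with the NMYB label, and it rose with the NMYB label by 0.17 (SE 0.0441, adjusted p = 0.00881) but not with the MYB label (0.03, adjusted p = 0.692). The difference between the labels was 0.14 (adjusted p = 0.113). HBG2 stood at −0.01 and 0.09 (adjusted p = 0.979 and 0.490), and reads of HBG1 and HBG2, which are near-identical, may have been split between them by the counting. HBE1, the embryonic beta-like gene, had 29 to 50 counts per library, fell with the MYB label by 0.71 (adjusted p = 0.0142) and stood at −0.13 with the NMYB label (adjusted p = 0.663). In the bin files HBG1, HBG2 and HBE1 share 1 joined name, which also holds OR51B5, TRIM5 and others, at −0.15 for 34kn (adjusted p = 0.127) and 0.10 for 34kp (adjusted p = 0.378). That joined name had 247407 to 416567 counts per library, whereas the gene table holds 3680 to 5386 of HBG1 and 29 to 50 of HBE1. The gene table levels and changes of HBG1, HBG2 and HBE1 are uncertain for that reason, and why the counts differ was not tested. Of 9 tested globin genes, 1 rose and 1 fell with the MYB label, and 3 rose and none fell with the NMYB label, beside 22.3% and 24.9% of all genes called. With the NMYB label HBQ1 rose by 1.05 (adjusted p = 0.00420) and HBD by 0.42 (adjusted p = 0.000171). HBA2 differed between the eRNA effects by −0.94 (adjusted p = 0.0173).

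Exon use within the members was tested on the bins, each bin against its gene. For 34kn 0.795% of 216197 bins were called, and of 285 member bins 1 was, in NR2C2. That bin, numbered 2, had 57, 18 and 10 counts in controls and 4, 8 and 13 with the eRNA, or 1.47%, 0.393% and 0.261% against 0.100%, 0.189% and 0.299% of the gene's bin counts. The groups overlapped, and control 1 alone stood high. Its log2 change against the gene was −1.79 (adjusted p = 0.0329), and no member bin was called without control 1, with limma's diffSplice or with a minimum bin count of 30. The bin could not be placed, since NR2C2 has 39 bins in the deposited files and 38 in GENCODE 29. HIC2 bin 1, named after its values were seen, had 326, 91 and 118 counts in controls and 58, 63 and 62 with the eRNA (−1.29, adjusted p = 0.0661). Every control lay above every eRNA library, and control 1 was the highest. Without 34kn control 2, 18 member bins and 8395 bins in all were called.

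For 34kp 19 of 220442 bins were called (0.00862%) and none of 284 member bins, with 2.18% of all bins and 4 member bins at an unadjusted p under 0.05 and no member bin called by limma's diffSplice. The 3 member bins with the smallest p were bin 7 of NR2C2 (−1.52), bin 1 of NR2C1 (0.88) and bin 6 of the joined name that holds CHD4 (0.40), each with an adjusted p of 1.0. NR2C2 bin 7 had 15, 12 and 14 counts in controls and 5, 7 and 2 with the eRNA. NR2C1 bin 1 (chromosome 12, 95020229 to 95021892), its most 3′ bin, had 28, 12 and 32 counts in controls and 24, 35 and 47 with the eRNA.

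For the members called in the vector experiment, the genes with the most similar pattern were found as the highest Pearson r of log2 CPM over the 9 libraries among 15823 genes. These 9 points share 3 groups, so a high r mostly follows the group means, and no test is given. Closest to NR2C2 were the guidance ligand gene SLIT2, the repressor gene ZEB2 and the adhesion receptor gene ADGRV1 (r = 0.992, 0.991 and 0.990). Closest to ZBTB7A were SMYD5, SYCE2 and the lysosomal protease gene CTSA (r = 0.969, 0.966 and 0.952). Closest to HIC2 were MOCS3, TSHZ1 and PELP1 (r = 0.991, 0.959 and 0.951).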

How the data were processed

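Total RNA of K562 cells was sequenced in 21 libraries. The authors deposited raw read counts, per exon bin for the 12 eRNA libraries and per gene for the 9 vector libraries, with no normalization per the file values. Per the submitters' processing notes, Trimmomatic 0.93, STAR 2.7.10a, HISAT2 2.2.1, featureCounts 2.0.1 and GRCh38 were used; the annotation release, strand setting and treatment of multi-mapping reads are not given in the sources used here. Bin counts were summed per gene name, leaving out the lines that name no gene (reads outside bins 29.5 to 32.8%, low quality 4.46 to 10.5%, ambiguous 0.0155 to 0.0225%). Each experiment was tested with edgeR 4.0.16 (R 4.3.3; quasi-likelihood F test, TMM, filterByExpr with a minimum count of 10, two-sided), adjusted by Benjamini-Hochberg over all genes tested, with a threshold of 0.05; the eRNA effects were compared by an interaction term over 12 libraries. Bins were tested with diffSpliceDGE. Alternatives were DESeq2 1.42.0, RLE factors, no filter, a replicate block, leaving out each library, limma 3.58.1 for bins, a minimum bin count of 30 and, chosen after seeing the data, removal of each library's GC trend. The tests were tried on simulated data. Named were all members, up to 4 called genes per list and comparison with the largest change, MYB, HBG1, HBG2 and HBE1, the called member bins (otherwise the 3 with the smallest p) and the 3 genes most like each called member. Members and lists were chosen with earlier results of these data known. The result of 1 gene name is not reported here.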

Additional observations from a re-analysis of the deposited data

Results flagged for a closer look

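The effects of the 34kn and 34kp eRNAs differed by the interaction test for the gene names given here. The difference, 34kn minus 34kp on the log2 scale, was −0.70 for ZBTB7A and −0.38 for IGF2BP1 among the fetal globin regulators. It was −0.57 for LMO2, −0.58 for GATAD2A, −0.46 for the joined name MTA1 and TEX22, −0.51 for the joined name that holds UQCR11 and MBD3, and −0.94 for HBA2. The ZBTB7A call held in all 12 fits that left out a library. The IGF2BP1 call held in only 3 of 12 and was lost with replicate number as a block. For the other names such fits are not given here. Leaving out 1 library changed the genes called for this difference from 1102 to between 380 and 2747.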

How the results depend on the processing

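The 7 called member values stayed called with DESeq2, RLE factors, no filter and the GC trend removed, and 1 (IGF2BP1 between the eRNA effects) was lost with the replicate block. Among all named genes, calls outside the members were lost 3 times with DESeq2, 1 time with RLE factors, 3 times without the filter and 2 times with the GC trend removed. With the replicate block 4 calls were lost, members included. Leaving out 1 library lost a call 88 times over all named genes, 15 of these for members. Deviations from the group mean correlated from −0.185 to 0.0994 between same-numbered libraries and from −0.122 to 0.18 between differently numbered ones. The numbers were therefore not taken as pairs. In the vector experiment alone these ranges were −0.0232 to 0.0994 and −0.122 to 0.0858, so a weak pairing there is not excluded. With the block 27.4% of genes were called with the MYB label and 29.8% with the NMYB label. The replicate block gave 1184 genes (7.48%) and 1 member between the NMYB and MYB labels, and 71 genes for 34kp. It gave 651 genes (3.76%) and 1 member for the difference between eRNA effects, and 8 bins for 34kp.

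Without the filter, 656 genes (1.84%) and 1 member were called between the labels, and 1572 genes (5.24%, of which 32.6% were higher) and 2 members for 34kn. For 34kp it was 997 genes (3.23%) and 1 member, and for the difference 2085 genes (6.22%) and 4 members. DESeq2 called 401 genes (2.53%) between the labels, and 1264 genes (7.84%) and 2 members for 34kn. For 34kp it called 976 genes (5.86%) and 2 members, with 41.4% of these genes higher against 26.8% by edgeR. For the difference it called 2014 genes (11.6%) and 4 members. With RLE factors 34.9% of calls between the labels were higher, against 45.3%. With the GC trend removed, 693 genes (4.38%) and 3 members were called between the labels, and 3 genes for 34kn. For 34kp it was 1789 genes (10.7%, of which 50.3% were higher) and 3 members, and with the MYB label 5088 genes (32.2%) and 6 of 9 members. In the 34kn bins limma called 0 member bins and a minimum count of 30 gave 0. With the longest transcript as length, 7 of 10 genes kept their rank.

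Leaving out 1 library gave 0 (without MYB library 1) to 323 genes between the labels, 0 to 2982 (without control 2) for 34kn, 46 (without control 2) to 1175 (without eRNA library 3) for 34kp and 380 to 2747 (without 34kp eRNA library 3) for the difference. With the MYB label 2491 to 2889 genes and 1 to 4 members were called, and members called ranged from 0 to 3 for 34kn, 0 to 2 for 34kp and 1 to 5 for the difference. The highest member counts came with 17.8% of genes called with the MYB label (without empty-vector library 2) and 18.0% for 34kn (without control 2). For 34kp and for the difference they came with 6.85% and 15.4%, both without 34kp eRNA library 3. Bins called ranged from 255 to 8395 for 34kn and 4 to 60 for 34kp, member bins for 34kn from 0 to 18, and ranks kept from 8 to 10.

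Values near 0 changed sign. With the GC trend removed, MYB and NR2C2 stood at −0.025 and −0.112 for the difference, LIN28B, the joined CHD4 name and NR2C2 at −0.068, 0.074 and −0.069 for 34kn, HBG2 at 0.005 with the MYB label and NFIX at −0.009 with the NMYB label. Between the labels NR2C1 stood at −0.005 with RLE factors and with DESeq2 and at −0.021 without the filter, and CHD4 with the NMYB label at −0.019 without the filter. Leaving out 1 library gave −0.038 to 0.076 for NR2C2 (difference), −0.000 to 0.152 for LIN28B, −0.022 to 0.019 for the joined CHD4 name and −0.018 to 0.094 for NR2C2 (34kn), and −0.145 to 0.044 for MBD2 and −0.001 to 0.043 for NR2C2 (34kp). It gave −0.069 to 0.016 for CHD4, −0.049 to 0.062 for HBG2 and −0.068 to 0.034 for MBD2 with the MYB label, −0.037 to 0.038 for NR2C1 and −0.056 to 0.047 for ZBTB7A between the labels, and −0.024 to 0.061 for CHD4 and −0.051 to 0.007 for MYB with the NMYB label. The cause of these changes was not tested. Depth limits BCL11A, which had at most 2 counts in any library.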
